A study of Mus musculus with 33 samples.

Results

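Guide RNAs (gRNAs) that cut on either side of the mouse gene Rpp25 were followed through a Cas9 mutagenesis screen of mouse embryonic stem cells, cultured cells that can still form every tissue of the body. Members were chosen by position only. The promoter side holds 317 gRNAs whose listed interval has its midpoint in the 2000 bp before the annotated 5' end of Rpp25 (chr9:57502102-57504101, mm10). The 3' flank side holds 107 gRNAs with midpoints in the 655 bp just past its annotated 3' end, from chr9 base 57505448 on. Together these are 424 of the 3918 library gRNAs of the Rpp25 line and of the 15672 gRNAs listed for the 4 reporter lines of the series. Rpp25 (gene ID 102614) lies on the plus strand at chr9:57504102-57505447 and spans 1346 bp. RefSeq places no other protein-coding gene in either window, and the nearest protein-coding neighbours are Cox5a, 11.9 kb downstream, and Scamp5, 36.0 kb upstream.

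Each gRNA was counted in genomic DNA of 2 populations of the Rpp25 line: cells sorted as GFP-negative, and the unsorted bulk population. In both, GFP is fused to the C-terminus of Rpp25, so that the fluorescence reports the Rpp25 protein, and the ROSA26 locus carries a placeholder guide. Library gRNAs were introduced by electroporation, and both populations were grown with LIF, GSK-3 inhibitor XV and UO126. There is 1 library of each population and no replicate. The title of the GFP-negative library names Rpp26, whereas its description and its tagged-gene field name Rpp25, and these were followed. The libraries held 333608 counts in GFP-negative and 74318 in bulk cells. Of the 3918 gRNAs 362 had a count in the GFP-negative library and 1807 in the bulk library, and every gRNA counted in GFP-negative cells was also counted in bulk.

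As background, Rpp25 is a protein subunit of ribonuclease P, the enzyme that trims the 5' end of precursor transfer RNAs, and of the related ribonuclease MRP. It pairs with the subunit Rpp20 (gene Pop7) and binds the RNA component of the enzyme. In the screen, Cas9 cuts at the site its gRNA names, and imprecise repair leaves small insertions or deletions there. A gRNA more frequent among GFP-negative than among bulk cells is read as marking a position where such mutations go with a lost reporter signal. The screen asks which positions around the gene are of that kind. A promoter is the DNA next to the transcription start where factors and RNA polymerase bind. The DNA past the 3' end of a gene lies outside its reading frame. Whether any single gRNA marks its position in this way was not tested, because the Rpp25 line has no replicate. In 17 of 23 pairs of nearly identical gRNAs on the promoter and 3' flank sides, described below, the fold changes were more than 4-fold apart. The folds of single gRNAs given below are therefore descriptions of counts.

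The 250 bp immediately before the annotated 5' end took 3.57% of GFP-negative counts, the largest share of any 250-bp step of the promoter side. Their sequence is shown so that the cuts can be placed in it. It comes from RefSeq (GRCm38.p6, the assembly of mm10), plus strand, chr9:57503852-57504101, counted from 1. Capitals mark the motif GGGCGG, the GC box bound by factors of the Sp1 family.
Rpp25 promoter: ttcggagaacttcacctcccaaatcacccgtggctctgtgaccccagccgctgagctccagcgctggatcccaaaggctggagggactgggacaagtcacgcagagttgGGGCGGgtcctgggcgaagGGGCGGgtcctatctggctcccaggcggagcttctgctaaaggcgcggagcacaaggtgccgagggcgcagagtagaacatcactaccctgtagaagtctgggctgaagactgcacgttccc
The stretch has 62.4% G and C and 14 CpG dinucleotides. It holds GGGCGG 2 times on the plus strand, starting at positions -141 and -122 relative to the annotated first base of the gene. Over both strands, 32.7% of 32851 RefSeq promoter windows of that length hold at least 1 copy of this motif and 16.7% hold 2 or more. CCAAT (in 33.8% of the windows) and TATAAA (in 12.4%) were also searched on both strands, and these letters are in the Rpp25 window in neither direction. A match is a description of the letters and not a measured binding site.

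The same sequence settles how the listed intervals are counted. Across the RefSeq windows of Rpp25, Scamp5 and Cox5a, 157 of 157 gRNA intervals end in an NGG PAM, the motif that Cas9 needs beside its target, on 1 strand or both when they are moved up by 1 base. As listed, without the move, 55 of 157 did. The intervals therefore count from 0, and a genome browser shows each position 1 higher. Names below are the listed ones. Midpoints, and the windows and distances based on them, also use the listed intervals, whereas cut positions include the move by 1 base. An interval of 23 bases is a 20-base target plus its PAM, and one of 22 bases is a 19-base target plus its PAM.

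Sequences could be read for the 48 promoter-side members whose intervals lie wholly inside the window above. The 7 of them that were at least 4-fold more frequent in GFP-negative than in bulk cells are shown from 5' to 3' on their own strand, with the PAM in capitals.
chr9:57503898-57503920, minus strand: gatccagcgctggagctcagCGG
chr9:57503981-57504003, plus strand: gcgggtcctatctggctcccAGG
chr9:57504005-57504026, plus strand: ggagcttctgctaaaggcgCGG
chr9:57503939-57503960, plus strand: gggacaagtcacgcagagtTGG
chr9:57503865-57503886, minus strand: gagccacgggtgatttgggAGG
chr9:57503951-57503973, plus strand: gcagagttggggcgggtcctGGG
chr9:57503892-57503914, minus strand: gcgctggagctcagcggctgGGG
Cas9 cuts 3 bases before the PAM. For these 7, the last base before the cut lies at positions -198, -104, -81, -147, -231, -134 and -204, in the order shown. They are targets on both strands. None of these cuts falls inside a GGGCGG copy, although the target of chr9:57503951-57503973 spans the upstream copy.

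The first base of the target separated the gRNAs that were counted from those that were not. Of the 48 members, 28 have a target that starts with G, and 28 of 28 were counted in the bulk library. The other 20 start with A, C or T, and 0 of 20 had a count in either library. A pair of neighbours of the second kind is shown for comparison, again with the PAM in capitals.
chr9:57503895-57503917, plus strand: cagccgctgagctccagcgcTGG
chr9:57503944-57503966, plus strand: aagtcacgcagagttggggcGGG
The same split was seen at the Scamp5 and Cox5a windows, where 59 of 59 targets that start with G and 0 of 40 others were counted in bulk. Just inside the Rpp25 gene 7 of 8 targets that start with G and 0 of 2 others were counted, which makes 94 of 95 and 0 of 62 over all targets with a sequence. All 43 of the 22-base intervals with a sequence start with G. Over the whole promoter side 54 of 54 gRNAs of 22 bases were counted in bulk, against 98 of 263 of 23 bases. On the 3' flank side these numbers were 24 of 25 and 28 of 82. A member without counts is therefore not a measured absence: for such gRNAs the screen gives no information at their position.

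Taken as a whole, the promoter side kept its share of counts in GFP-negative cells while most of the line lost its share. The 317 gRNAs took 7.65% of GFP-negative counts (exact Clopper-Pearson 95% interval 7.56 to 7.74) and 7.84% of bulk counts (7.64 to 8.03), a log2 ratio of -0.04. These intervals cover counting error only, since PCR reads are not independent molecules, and leave out any spread between libraries. The 241 gRNAs of the Rpp25 gene body took 37.9% of GFP-negative and 6.14% of bulk counts, and the 10 GFP-targeting gRNAs, which cut the reporter itself, took 42.0% of GFP-negative and 0.815% of bulk counts. The 3243 gRNAs elsewhere took 11.2% of GFP-negative and 82.1% of bulk counts, a log2 ratio of -2.87. Because gene body and GFP-targeting gRNAs fill most of the GFP-negative library, they lower every other share in it. With both left out of the totals, the log2 ratio of the promoter side was 2.17, and with only the GFP-targeting gRNAs left out it was 0.74.

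Of the 317 promoter-side gRNAs, 165 had no count in either library, 91 were counted in bulk only and 61 in both. Those 61 are 40.1% (exact 95% interval 32.3 to 48.4) of the 152 counted in bulk, against 12.5% (10.8 to 14.3) of the gRNAs elsewhere and 65.9% (57.4 to 73.8) of the gene body gRNAs. Members kept in GFP-negative cells had been more abundant in bulk, with 2 to 247 bulk counts (median 39.0), than those not kept, with 1 to 109 (median 18.0). The GFP-negative counts of the 61 ran from 1 to 3719, with a median of 111, and 15 of them held fewer than 10. Among the 61, counts in the 2 libraries were nearly unrelated (Spearman 0.07, a description across gRNAs of the same 2 libraries). Over all 152 counted in bulk the Spearman value was 0.38.

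A fold rule was used to describe single gRNAs: at least 4-fold higher or lower in GFP-negative cells after adding 1 CPM (a count scaled to a library of 1000000) to each value. A higher gRNA needed at least 10 counts in either library, and a lower one at least 10 bulk counts. Without replicates this is a description with no test. On the promoter side 12 of 127 gRNAs (9.45%) were higher, where 5.64% of all 1525 gRNAs of the line with enough counts were, and 1.31% of those elsewhere. A gRNA with under 10 bulk counts could enter this count only through its GFP-negative count. With at least 10 bulk counts required, 10 of 125 promoter-side gRNAs were higher. In the other direction 93 of 125 (74.4%) were lower, where 88.0% of all 1511 were. Of those 93, 68 had no GFP-negative count at all. The median log2 change of the 125 was -7.22, against -8.45 over all 1511, and in both sets most gRNAs had no GFP-negative count.

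Of the 12 gRNAs that met the higher rule, 11 lie within 500 bp of the 5' end. The 94 gRNAs of that stretch took 6.37% of GFP-negative counts (6.29 to 6.46) and 2.91% of bulk counts (2.79 to 3.04), a log2 ratio of 1.13. They held 83.4% of the GFP-negative counts of the promoter side and 37.2% of its bulk counts. Of 49 counted in bulk, 35 (71.4%, exact 95% interval 56.7 to 83.4) were counted in GFP-negative cells. At least 4-fold higher were 11 of 44 (25.0%), where 5.64% of all 1525 gRNAs of the line were. Among the 11, chr9:57503647-57503669 (585 GFP-negative and 2 bulk counts) and chr9:57503639-57503661 (267 GFP-negative and 4 bulk counts) qualified through GFP-negative counts alone. In the same stretch more gRNAs were lower than higher: 20 of 42 (47.6%) were at least 4-fold lower, where 88.0% of all 1511 were. The remaining 223 gRNAs, 500 to 2000 bp upstream, took 1.27% of GFP-negative and 4.92% of bulk counts, with 26 of 103 (25.2%, 17.2 to 34.8) counted in GFP-negative cells and 1 of 83 at least 4-fold higher. For orientation, 50 of 69 (72.5%) of the counted gRNAs in the first 500 bp inside the gene were found in GFP-negative cells and 31 of 60 were at least 4-fold higher. The next 500 bp beyond the upstream edge took 0.452% of GFP-negative and 1.61% of bulk counts, with 8 of 47 found and 1 of 24 higher.

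In finer steps, the first 250 bp upstream took 3.57% of GFP-negative and 1.21% of bulk counts (2.96-fold higher), and the next 250 bp took 2.80% of GFP-negative and 1.71% of bulk counts (1.64-fold higher). In the stretch from 500 to 1000 bp the GFP-negative share was 0.443% and the bulk share 1.90%, and from 1500 to 2000 bp the GFP-negative share was 0.159% and the bulk share 1.54%. The stretch from 1000 to 1500 bp, with 0.670% of GFP-negative and 1.47% of bulk counts, rests on 1 gRNA. It holds chr9:57503065-57503087, which gave 86.9% of the GFP-negative counts there, and without it the ratio of the shares was 0.0604 instead of 0.454. The stretch within 500 bp did not rest on 1 gRNA in this way: without its most counted gRNA the ratio was 1.86 instead of 2.19. A few gRNAs still held most of its counts. The 6 most counted gRNAs of the promoter side held 60.4% of its GFP-negative counts, and all but chr9:57503065-57503087 lie within 500 bp. Leaving out more than 1 gRNA of the stretch was not tried. The stretch was also not even. The 4 counted gRNAs that cut nearest to the gene, at positions -72, -64, -63 and -58, had 0, 0, 2 and 68 GFP-negative counts and 12, 27, 13 and 81 bulk counts, and none was more frequent in GFP-negative cells.

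The most counted member in GFP-negative cells was chr9:57503898-57503920, with 3719 counts in GFP-negative and 62 in bulk cells. This is 11148 against 834 CPM, 13.4-fold higher (95% counting interval 10.4 to 17.5), for a cut at position -198. Close to the gene, chr9:57503981-57504003 had 2733 GFP-negative and 69 bulk counts and was 8.82-fold higher (6.95 to 11.4). Nearest of all that met the rule, chr9:57504005-57504026 had 1639 GFP-negative and 35 bulk counts and was 10.4-fold higher (7.47 to 15.0). All these cuts lie in the window printed above, on either side of the 2 GC boxes.

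With a cut at position -147, upstream of both GC boxes, chr9:57503939-57503960 had 882 GFP-negative and 16 bulk counts and was 12.3-fold higher (7.52 to 21.6). Of 4 counted gRNAs whose target spans the upstream GC box, 1 met the rule: chr9:57503951-57503973 had 464 GFP-negative and 18 bulk counts, 5.74-fold higher (3.59 to 9.78). The others were chr9:57503951-57503972 with 3 GFP-negative and 6 bulk counts, chr9:57503959-57503980 with 145 GFP-negative and 19 bulk counts, and chr9:57503959-57503981 with 56 GFP-negative and 39 bulk counts. At the downstream GC box, chr9:57503973-57503995, whose target spans that copy, had 0 GFP-negative and 10 bulk counts and met the lower rule. The only gRNA counted in bulk that cuts within a GGGCGG copy, chr9:57503964-57503985, had 251 GFP-negative and 15 bulk counts, 3.73-fold higher and just below the rule. At the far end of the window chr9:57503865-57503886 had 547 GFP-negative and 17 bulk counts, 7.17-fold higher (4.44 to 12.4).

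From 250 to 500 bp upstream, the largest GFP-negative counts belonged to chr9:57503680-57503702, with 2869 in GFP-negative and 246 in bulk cells. Its bulk count was also among the highest of the side, so the fold was 2.60 (2.28 to 2.97) and below the rule. With 2465 GFP-negative and 105 bulk counts, chr9:57503744-57503766 was 5.23-fold higher (4.30 to 6.42), and chr9:57503696-57503717, with 1685 GFP-negative and 95 bulk counts, was 3.95-fold higher (3.21 to 4.91). The less abundant chr9:57503602-57503623 had 436 GFP-negative and 14 bulk counts, 6.94-fold higher (4.09 to 12.8). For chr9:57503647-57503669, with 585 counts in GFP-negative and 2 in bulk cells, the ratio of 65.2 has a counting interval of 18.0 to 539 because of the 2 bulk counts.

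Farther out stood 1 exception, the gRNA chr9:57503065-57503087 with its midpoint at position -1026.0. It had 1943 counts in GFP-negative and 19 in bulk cells, 5824 against 256 CPM, 22.8-fold higher (14.5 to 37.9). No other gRNA from 500 to 2000 bp upstream met the higher rule, and the next highest by fold there, chr9:57503268-57503290, had 275 GFP-negative and 20 bulk counts (3.06-fold). At the other extreme were gRNAs that were abundant in bulk and had no GFP-negative count. With 0 GFP-negative and 109 bulk counts, chr9:57502279-57502301 was at least 163-fold lower, taking 3 counts (8.99 CPM) as the limit that a count of 0 allows in the GFP-negative library. By the same limit chr9:57502833-57502855 (0 GFP-negative and 98 bulk counts) was at least 147-fold lower and chr9:57503458-57503479 (0 GFP-negative and 92 bulk counts) at least 138-fold lower. These limits, and those given below for the 3' flank side, take the bulk counts as exact and leave out any spread between libraries. A count of 0 was common: of the 1807 gRNAs of the line counted in bulk, 1445 had no GFP-negative count. Nearest to the 5' end, chr9:57504066-57504088 had no count in either library, and its target starts with T. Just outside, 6.5 bp inside the gene, chr9:57504098-57504119 had 34 GFP-negative and 2 bulk counts.

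Nearly identical gRNAs often had very different values. Some members have intervals that share a start or an end and differ by 1 base in length. Both gRNAs had at least 10 bulk counts in 16 such pairs on the promoter side and 7 on the 3' flank side. In 17 of these 23 pairs (73.9%) the fold changes were more than 4-fold apart, and in 9 only 1 of the 2 was counted in GFP-negative cells. In each of the 9 pairs with both gRNAs counted in GFP-negative cells they were more than 4-fold apart. Where the sequence was read, 5 pairs with at least 10 bulk counts each were nested targets on the same strand, and all 5 were more than 4-fold apart. Elsewhere the strand is not known. In the rest of the line 47 of 138 such pairs (34.1%) were more than 4-fold apart. Neither gRNA was counted in GFP-negative cells in 91 of the 138, against 5 of the 23 above. In 34 of the 138 only 1 gRNA was counted there, and in 13 both were, with 9 of the 13 more than 4-fold apart. Some of the 47 pairs therefore had no GFP-negative count and differ by bulk counts only.

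The following pairs, chosen after their values were seen, are printed to show how alike the targets are. The cuts of each pair lie 1 bp apart.
chr9:57503939-57503960, plus strand: gggacaagtcacgcagagtTGG
chr9:57503939-57503961, plus strand: gggacaagtcacgcagagttGGG
chr9:57503913-57503934, plus strand: gctggatcccaaaggctggAGG
chr9:57503913-57503935, plus strand: gctggatcccaaaggctggaGGG
In the first pair the 19-base target had 882 counts in GFP-negative and 16 in bulk cells, and the 20-base target had 50 GFP-negative and 53 bulk counts, so that one was 12.3-fold higher and the other had 0.210 of its bulk frequency. In the second pair there were 89 GFP-negative and 36 bulk counts for the 19-base target, against 0 GFP-negative and 36 bulk counts for the 20-base target. The assignment of reads to targets of which one is the start of the other was not stated in the labels. Whether reads were split between such gRNAs was not tested.

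The same was seen at 3 pairs, also chosen after their values were seen, that hold members with large counts whose sequence was not used here. Beside chr9:57503680-57503702 (2869 GFP-negative and 246 bulk counts), chr9:57503681-57503702 had 47 GFP-negative and 247 bulk counts. Beside chr9:57503744-57503766 (2465 GFP-negative and 105 bulk counts), chr9:57503745-57503766 had 1 GFP-negative and 25 bulk counts, and beside chr9:57503696-57503717 (1685 GFP-negative and 95 bulk counts), chr9:57503696-57503718 had 1 GFP-negative and 41 bulk counts. In each of these pairs the gRNA with many GFP-negative counts had a neighbour with a lower frequency in GFP-negative than in bulk cells.

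Strand, target length and base composition were also set beside the counts of the 28 members that start with G. The 19 plus-strand and 9 minus-strand targets were found in GFP-negative cells in 14 and 7 cases, and 4 and 3 were at least 4-fold higher. Of 11 targets of 19 bases 10 were found, with 3 higher, and of 17 targets of 20 bases 11 were found, with 4 higher. Over all gRNAs of the line with enough counts 5.64% were higher and 88.0% lower. The median G and C content was 65.0% for the 7 higher gRNAs, 64.1% for the 10 lower ones and 73.7% for the other 11, some of which had too few bulk counts to be judged as lower. No target held a run of 4 T, the stop signal of the polymerase that usually transcribes gRNAs.

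The 3' flank side lost share in GFP-negative cells, but less than the line outside the gene. Its 107 gRNAs took 1.26% of GFP-negative counts (1.23 to 1.30) and 3.08% of bulk counts (2.96 to 3.21), a log2 ratio of -1.28, set beside -0.04 on the promoter side and -2.87 elsewhere. With the gene body and GFP-targeting gRNAs left out of the totals the log2 ratio was 0.92, so its sign depends on what the share is taken of. Of the 107 gRNAs 55 had no count in either library, 33 were counted in bulk only and 19 in both, which is 36.5% (exact 95% interval 23.6 to 51.0) of the 52 counted in bulk. At least 4-fold higher were 0 of 44, where 5.64% of the line and 1.31% of the gRNAs elsewhere were. At least 4-fold lower were 33 of 44 (75.0%), where 88.0% of the line and 95.6% of the gRNAs elsewhere were.

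Over equal distances, the 3' flank side had fewer gRNAs in GFP-negative cells than the promoter side. Within 500 bp of the 3' end 16 of 41 counted gRNAs (39.0%, 24.2 to 55.5) were found in GFP-negative cells and 0 of 37 were at least 4-fold higher, against 35 of 49 (71.4%) and 11 of 44 within 500 bp of the 5' end. The last 500 bp inside the gene took 2.25% of GFP-negative and 2.23% of bulk counts, with 5 of 38 gRNAs at least 4-fold higher. The next 500 bp past the 3' window took 0.793% of GFP-negative and 1.29% of bulk counts, with 6 of 21 found and 1 of 18 higher. Over all 1525 gRNAs of the line with enough counts 5.64% were at least 4-fold higher, and 1.31% of those elsewhere. The 0 of 37 is thus close to the share elsewhere. With 1 library of each population none of the differences between stretches has a test.

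A single gRNA held 47.7% of the GFP-negative counts of the 3' flank side. This was chr9:57505789-57505810, with its midpoint 352.5 bp past the 3' end, which had 2015 counts in GFP-negative and 144 in bulk cells, 3.12-fold higher (2.63 to 3.72). Without it the log2 ratio of the side was -2.13. Its near-identical interval did not share this: chr9:57505788-57505810, 1 base longer, had 0 GFP-negative and 32 bulk counts. The second most counted, chr9:57505897-57505918, had 776 GFP-negative and 48 bulk counts and was 3.60-fold higher (2.69 to 4.93). The members counted in both libraries held 1 to 2015 GFP-negative counts, with a median of 70.0.

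The next 4 by GFP-negative counts on the 3' flank side had ratios of about 1 or below. For chr9:57505662-57505684 there were 278 counts in GFP-negative and 148 in bulk cells, a ratio of 0.418 (0.342 to 0.514). The intervals of the ratio held 1 for chr9:57506030-57506052 (221 GFP-negative and 57 bulk counts, 0.864, 0.643 to 1.18) and for chr9:57505494-57505515 (185 GFP-negative and 41 bulk counts, 1.01, 0.713 to 1.45). With 138 GFP-negative and 46 bulk counts chr9:57505578-57505599 had a ratio of 0.668 (0.476 to 0.955). Absent from GFP-negative cells although abundant in bulk were chr9:57506026-57506048 (122 bulk counts, at least 183-fold lower), chr9:57505506-57505527 (113, at least 169-fold) and chr9:57505778-57505799 (103, at least 154-fold). The gRNA nearest to the 3' end, chr9:57505481-57505503, had no count in either library.

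The Nanog line has the same kind of reporter, a C-terminal GFP fusion, and its own gRNA library. In the 2000 bp upstream of the Nanog 5' end 279 gRNAs took 7.52% of GFP-negative and 4.70% of bulk counts in replicate 1. In replicate 2 they took 10.3% of GFP-negative and 5.14% of bulk counts. The log2 ratios were 0.68 and 1.01, where the Rpp25 promoter side had -0.04. Each line was scaled to its own totals, which include its GFP-targeting and gene body gRNAs. With GFP-targeting gRNAs left out of the totals the Rpp25 value was 0.74, and no such value is given here for Nanog. The 2 lines therefore cannot be ranked by these ratios, and the difference between them was not tested.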

How the data were processed

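The submitters deposited tables of raw counts per gRNA, 1 table a line, recognised by whole-number values whose totals differ between libraries. Per the labels' protocols, libraries were made by PCR from genomic DNA, and per the submitters' processing notes positions refer to mm10. The labels name no read counter, and molecular identifiers are not mentioned. The placeholder guide (1 count in GFP-negative, 455 in bulk) was left out of totals.

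The Rpp25 line has 1 library of each population, so no test was made. CPM, folds after adding 1 CPM, shares with exact Clopper-Pearson intervals at 95%, and intervals of the ratio of 2 counts (exact, given their sum) were computed with python 3.11.15 and scipy 1.17.1. One count is worth 3.00 CPM in the GFP-negative library and 13.5 CPM in the bulk library. Sequences and strands came from RefSeq promoter windows (250 bp before to 50 after the start), which cover 48 members. The gRNAs named are, for each side, the 6 with most GFP-negative counts, up to 10 at least 4-fold higher, the 3 most counted in bulk without GFP-negative counts and the nearest to the gene end. Others were named after their values were seen. Members and lists were chosen with earlier results of these data known.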

Additional observations from a re-analysis of the deposited data

How the results depend on the processing

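What the shares are taken of mattered most. With GFP-targeting gRNAs left out of the totals the log2 ratio was 0.74 on the promoter side, 1.90 within its first 500 bp and -0.51 on the 3' flank side. Without the 10 most counted gRNAs of the GFP-negative library, none of them a member, it was 0.96, 2.13 and -0.29. With gene body gRNAs left out as well as GFP-targeting ones, a choice added after seeing the data, it was 2.17, 3.34 and 0.92, the last with the opposite sign to that reported. Without the most counted gRNA of each it was -0.25, 0.89 and -2.13. Counting the placeholder, assigning gRNAs by interval start, by whole interval or 1 base higher, and leaving out gRNAs with under 10 bulk counts each kept all 3 ratios inside their counting intervals. The number at least 4-fold higher was 19 on the promoter side and 2 on the 3' flank side after centring on the median of gRNAs with counts in both libraries, 7 on the promoter side at 8-fold and 2 on the 3' flank side at 2-fold. The number lower was 48 and 19 with at least 30 bulk counts, where fewer gRNAs qualify. All other counts stayed within 1.5 times the reported ones, among them 10 higher on the promoter side when at least 10 bulk counts were required. The GFP-negative library is the deeper one. Thinned to the bulk total it would be expected to hold 35.5% of the bulk-counted promoter-side gRNAs instead of 40.1%, and 30.3% instead of 36.5% on the 3' flank side. No paired analysis was possible because each population of the line has 1 library, and for the same reason no replicate could be left out.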

Other observations

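The link between the first base of the target and being counted at all was also looked up in the other lines, over the gRNAs that lie inside RefSeq promoter windows. In the Nanog line 69 of 72 targets that start with G and 0 of 68 others had a count in any of 4 libraries. In the Zfp42 line 45 of 45 and 0 of 47 had one in any of 12 libraries. In the Tdgf1 line all 36 targets that start with G and all 43 others were counted in at least 1 of 9 libraries. Of the 3908 gRNAs with a position in each line, 2110 were never counted in the Rpp25 line, 2243 in Nanog, 2199 in Zfp42 and 141 in Tdgf1. Whether the gRNAs without a leading G were not introduced or not counted in 3 of the 4 lines was not tested.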
